A study of Mus musculus with 8 samples.

Results

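The 42 collagen genes measured in the liver of mouse pups that lack glycerol kinase are described here. They were found by symbol, as every gene of the array annotation named Col, a number, the letter a and a number, out of 18194 genes with a probe set of their own. The array carries 82 probe sets for them, and each gene is represented by the probe set with the highest mean over the 8 arrays. Of the 42 genes, 22 reached a signal of 200 on at least 4 arrays and entered the test, and 20 did not. These 22 are therefore the members with enough signal and not the whole family.

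Collagens are extracellular proteins whose alpha chains wind around each other into a helix. Fibrillar collagens assemble into the fibres that bear load between cells, type IV collagens form the sheet-like network of basement membranes, and other classes decorate fibrils, form beaded filaments or span the cell membrane. In liver most fibrillar collagen is made by stellate cells and portal fibroblasts, while hepatocytes rest on a thin matrix along the sinusoids.

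Knockout pups carried a disruption of the glycerol kinase gene, whose product phosphorylates glycerol, and the wild-type pups were their littermates of the same age. All 8 were of the inbred C57BL/6J strain, were labelled male and were taken on day of life 3 without a stated treatment, 4 per group. RNA of each liver went on a separate Affymetrix Mouse 430 2.0 array, on which a probe set is a group of short probes for a stretch of transcript. The series design places the onset of low blood glucose and acidosis in the knockout between day 2 and day 3, and no symptom of these individual pups is recorded in the labels used here. Because each liver was ground as a whole, fewer cells of a type and less RNA per cell cannot be told apart, and p-values measure the spread between these livers.

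Median signal was 147 to 174 per array. Control probe sets split the arrays by replicate number: the BioB spike read 141 to 167 where the number was 1 or 2, in knockout and wild type alike, and 258 to 338 where it was 3 or 4. These are called array sets, and the labels give no batch. The ratio of 3' to 5' signal is a sign of RNA quality. For pyruvate carboxylase it was 7.03 on knockout 1 and 4.93 on knockout 2, against 2.06 to 3.46 on the other 6 arrays. For actin it was 1.74 on knockout 1 and 1.27 on knockout 2, against 1.21 to 1.32 elsewhere. In the same order it was 6.55 and 6.72 for transferrin receptor, against 4.21 to 6.53 elsewhere. For Gapdh it was 0.896 and 0.886, against 0.765 to 0.886. Knockout 2 thus stood clearly apart in pyruvate carboxylase only, and knockout 1 in pyruvate carboxylase and actin. The array labelled wild type 4 went against its label, with Xist at 10506 against 196 to 396 elsewhere. The annotation used here paired no probe set with the disrupted gene (Gk, older symbol Gyk), so its signal was not analysed here.

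Most tested collagen genes read lower in knockout liver, the widespread type IV chains Col4a1 and Col4a2 read higher, and none passed the threshold. Of 22 tested genes 18 had a log2 fold change below 0 and 4 above 0, whereas of all 20395 probe sets tested 54.2% were below 0 and 45.8% above. The median log2 fold change, knockout minus wild type, was -0.28 over the 22 genes and -0.03 over all probe sets tested. With limma and Benjamini-Hochberg adjustment over all probe sets, 0 collagen genes were called higher (background 0.147%) and 0 lower (background 0.152%) at an adjusted p under 0.05. At an unadjusted p under 0.05, limma placed 5 genes lower, which is 22.7% of those tested against a background of 7.32%: Col27a1, Col3a1, Col16a1, Col6a3 and Col1a1. By the same measure 1 gene, Col4a1, was higher, which is 4.55% against a background of 7.12%. The knockout and wild-type arrays did not overlap for 2 genes that read lower, Col27a1 and Col6a3 (background 4.85%), and for 2 that read higher, Col4a1 and Col4a2 (background 4.47%). Leaving out an array that stood apart kept the median of the tested genes close: it was -0.29 without knockout 1, -0.31 without knockout 2 and -0.31 without wild type 4.

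**Figure D1:**
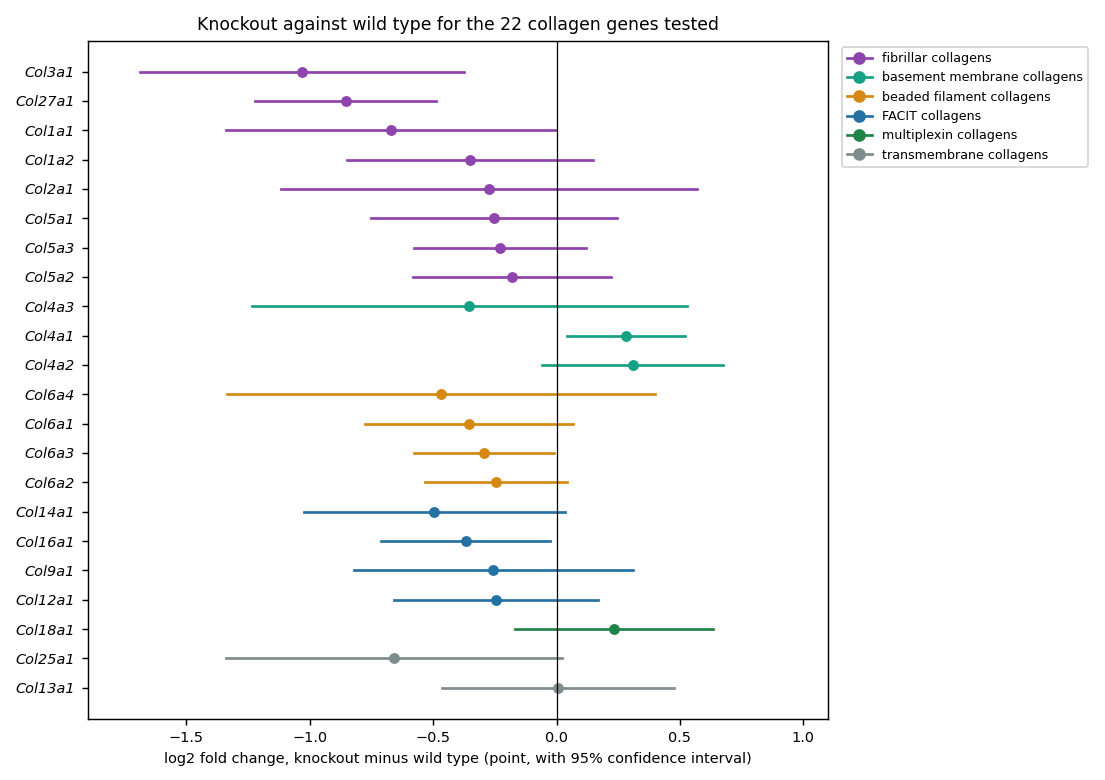
Log2 fold change, knockout minus wild type, of the 22 collagen genes tested, on the horizontal axis, with points for limma's estimate and lines for its 95% confidence interval, 4 arrays per group, coloured by class. All 8 fibrillar genes lie left of 0, Col4a1 and Col4a2 lie right of it, and the interval of Col27a1 runs from -1.22 to -0.49.

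All 8 fibrillar collagen genes tested, of 11 on the array, had a log2 fold change below 0, with a median of -0.31, and the largest differences were those of Col3a1, Col27a1 and Col1a1. Col3a1 encodes the chain of type III collagen, the main protein of the fine reticular fibres of liver. Its signal was 1548.9, 1403.3, 2813.0 and 2533.9 on knockout arrays, against 2678.5, 3497.3, 6533.6 and 4488.4 on wild-type arrays. Within each array set both knockout livers were below both wild-type livers. Over all 8 arrays the groups overlapped, with knockout 3 above wild type 1. The mean was 2075 ± 703 in knockout and 4299 ± 1663 in wild type (SD, n = 4 each), a ratio of 0.483. Its log2 fold change was -1.03 ± 0.30 (SE), with a limma adjusted p of 0.158. With the array set as a block the standard error was 0.15 and the adjusted p 0.0235, so Col3a1 is called in that fit, and without wild type 4 and with no block the value was -0.98.

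Col27a1 encodes a fibrillar chain best known from cartilage. Its signal was 854.9, 847.3, 1090.9 and 1106.4 on knockout arrays, against 1377.9, 1862.4, 2060.8 and 1818.7 on wild-type arrays. Every knockout liver was below every wild-type liver. The mean was 975 ± 143 in knockout and 1780 ± 288 in wild type (SD, n = 4 each), a ratio of 0.548. The log2 fold change was -0.85 ± 0.17 (SE), with a limma adjusted p of 0.0655, the smallest among the 22 genes. The adjusted p was 0.0295 with the array set as a block, 0.0429 without knockout 4 and 0.0369 without wild type 1, and it lay above 0.05 when any other array was left out. A second probe set of the gene gave -0.83, also with no overlap between the groups.

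The promoter windows of these genes, the leading pair among the fibrillar chains, are given from RefSeq on GRCm38.p6, from 250 bases before the annotated start to 50 after it. Col3a1 lies on the plus strand at chr1:45311288-45311587 and Col27a1 on the plus strand at chr4:63215162-63215461. The gene record of Col27a1 begins at base 63214009, upstream of its window. Capitals mark matches on either strand to the CCAAT box, read as CCAAT. They also mark the GC box, spelled GGGCGG. The TATA box was searched as TATAAA and marked too.
Col3a1: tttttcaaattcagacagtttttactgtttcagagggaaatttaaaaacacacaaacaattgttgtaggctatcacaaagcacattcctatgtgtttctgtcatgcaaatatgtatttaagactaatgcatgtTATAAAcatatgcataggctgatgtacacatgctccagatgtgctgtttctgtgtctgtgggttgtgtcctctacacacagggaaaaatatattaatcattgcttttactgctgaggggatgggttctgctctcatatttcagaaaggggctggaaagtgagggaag
Col27a1: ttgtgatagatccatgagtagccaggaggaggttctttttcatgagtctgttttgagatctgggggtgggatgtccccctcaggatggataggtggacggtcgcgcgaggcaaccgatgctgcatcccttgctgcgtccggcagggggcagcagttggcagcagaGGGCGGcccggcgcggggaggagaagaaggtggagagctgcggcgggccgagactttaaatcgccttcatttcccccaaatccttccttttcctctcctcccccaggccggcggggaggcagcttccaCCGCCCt
The Col3a1 window holds 1 TATA box match and no match to the other motifs, and the Col27a1 window holds 2 GC box matches. Of 32851 promoter windows of the same length, 13.6% hold TATAAA, 35.7% the GC box and 37.4% CCAAT. Of 36 windows found for 33 of the collagen genes, 5 hold TATAAA, 22 the GC box and 13 CCAAT.

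Type I collagen, the most widespread fibre protein of connective tissue, is built from the chains of Col1a1 and Col1a2. Col1a1 read 537.7, 683.8, 1163.1 and 1130.4 on knockout arrays, against 829.8, 1312.5, 1977.8 and 1488.6 on wild-type arrays. Within each array set both knockout livers were below both wild-type livers, and the groups overlapped over all arrays. Its log2 fold change was -0.67 ± 0.30 (SE), with a limma adjusted p of 0.344. A second probe set of Col1a1 gave -0.77 with no overlap between the groups. Col1a2 read 2565.7, 1904.4, 2460.5 and 2005.8 on knockout arrays, against 1922.4, 2469.2, 4202.9 and 3206.7 on wild-type arrays. Wild type 3 and wild type 4 were the highest and the other 6 arrays were mixed, with a log2 fold change of -0.35 ± 0.23 and a limma adjusted p of 0.515.

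**Figure D2:**
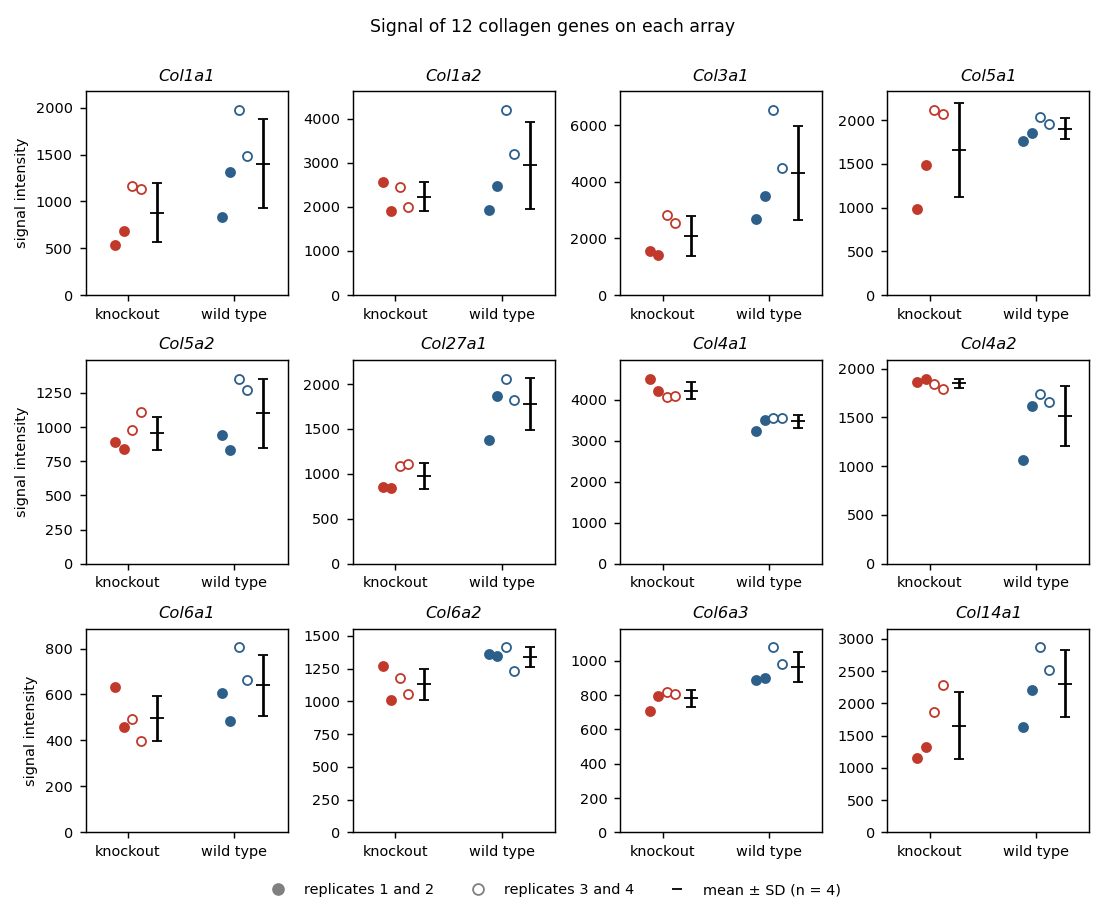
Signal intensity on a linear vertical axis for 12 collagen genes, knockout left and wild type right, with 1 point per array, filled for replicates 1 and 2 and open for replicates 3 and 4, and bars for the mean ± SD (n = 4). Every knockout point of Col27a1 lies below the wild-type points, and every knockout point of Col4a1 and Col4a2 lies above them.

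The type V chains, which join type I fibrils and limit their width, differed less. Col5a1 read 981.8, 1484.7, 2116.9 and 2069.0 in knockout, against 1765.5, 1855.2, 2038.8 and 1953.2 in wild type. Knockout 1 and knockout 2 were the lowest arrays, and knockout 3 and knockout 4 the highest. The log2 fold change was -0.25 ± 0.23, and the other probe sets of Col5a1 gave 0.16 and 0.11, so its probe sets differed in sign. Col5a2 read 893.0, 838.2, 975.9 and 1111.7 in knockout, against 944.5, 830.5, 1354.7 and 1273.7 in wild type, with a log2 fold change of -0.18 ± 0.18. A second probe set of Col5a2 gave -0.61, with a limma adjusted p of 0.101 and no overlap. Col5a3 read 476.8, 365.1, 477.9 and 480.6 in knockout, against 626.7, 530.7, 437.6 and 528.0 in wild type, with overlap and a log2 fold change of -0.23 ± 0.16. Col2a1, the main chain of cartilage, had a log2 fold change of -0.27 ± 0.38 between overlapping groups at signals of 86.0 to 257.9.

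Type IV collagen showed the opposite sign for its 2 widespread chains. Col4a1 and Col4a2 encode the chains of the network found in nearly all basement membranes. Col4a1 read 4510.8, 4213.9, 4053.6 and 4093.5 on knockout arrays, against 3233.6, 3512.3, 3559.8 and 3562.5 on wild-type arrays. Every knockout liver was above every wild-type liver. The mean was 4218 ± 207 in knockout and 3467 ± 157 in wild type (SD, n = 4 each), a ratio of 1.22. The log2 fold change was 0.28 ± 0.11 (SE), with a limma adjusted p of 0.274, and a second probe set gave 0.37.

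Col4a2 read 1861.9, 1898.2, 1847.3 and 1791.6 on knockout arrays, against 1059.6, 1614.0, 1737.5 and 1657.7 on wild-type arrays. The groups did not overlap, and wild type 1 was far below the other wild-type livers. The log2 fold change was 0.31 ± 0.17, with a limma adjusted p of 0.433, and without wild type 1 it was 0.15. Col4a3, a chain of specialised basement membranes such as that of the kidney glomerulus, read 65.2, 216.4, 199.9 and 232.1 in knockout, against 223.2, 243.2, 308.3 and 118.1 in wild type. The groups overlapped, and its log2 fold change of -0.35 ± 0.40 became 0.02 without knockout 1. Over these 3 genes the median was 0.28, and 0.15 without wild type 1.

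The annotated starts used for the windows of Col4a1 and Col4a2 lie 21 bases apart on opposite strands of chromosome 8, so these promoter windows overlap. The gene record of Col4a1 reaches base 11312889, upstream of the start used here, 11312826. The windows are shown because both genes read higher in every knockout liver than in any wild-type liver. Col4a1 is on the minus strand at chr8:11312777-11313076 and Col4a2 on the plus strand at chr8:11312555-11312854, with capitals as above.
Col4a1: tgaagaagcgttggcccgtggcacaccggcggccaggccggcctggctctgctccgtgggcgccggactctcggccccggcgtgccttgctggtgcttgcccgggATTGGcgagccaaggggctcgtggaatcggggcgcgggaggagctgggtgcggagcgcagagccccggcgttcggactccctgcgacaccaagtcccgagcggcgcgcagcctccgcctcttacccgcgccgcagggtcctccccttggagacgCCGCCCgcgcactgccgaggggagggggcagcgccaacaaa
Col4a2: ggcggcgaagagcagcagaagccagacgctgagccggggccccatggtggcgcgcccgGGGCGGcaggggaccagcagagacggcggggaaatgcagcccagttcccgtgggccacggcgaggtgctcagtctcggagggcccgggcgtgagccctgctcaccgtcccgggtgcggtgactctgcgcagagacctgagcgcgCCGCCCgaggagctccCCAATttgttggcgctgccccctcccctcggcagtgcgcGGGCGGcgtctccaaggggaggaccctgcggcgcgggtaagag
The Col4a1 window holds 1 CCAAT match and 1 GC box match, and the Col4a2 window holds 1 CCAAT match and 3 GC box matches. The GC box of the Col4a1 window is also in the Col4a2 window, read from the other strand.

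Signals of chains that assemble into the same molecule were compared over the 8 arrays, as log2(signal + 16), for 3 pairs. For Col4a1 and Col4a2 Pearson's r was 0.78 (exact permutation p = 0.00139, adjusted 0.00417) and Spearman's rho 0.93 (exact permutation p = 0.00223, adjusted 0.0067). Without knockout 1 and wild type 1, the arrays farthest from the median of Col4a1, r was 0.91. Both genes separate the genotypes fully, so these values include the genotype difference, and within the 4 knockout and the 4 wild-type arrays r was 0.41 and 0.995, with no test. For Col6a1 and Col6a2 r was 0.75 (exact permutation p = 0.0332, adjusted 0.0498) and rho 0.69 (exact permutation p = 0.0694, adjusted 0.0962), and r was 0.51 without wild type 3 and knockout 4, so that relation rests on those arrays. Within knockout and within wild type r was 0.86 and 0.19 for this pair. For Col1a1 and Col1a2 r was 0.68 (exact permutation p = 0.0598, adjusted 0.0598) and rho 0.64 (exact permutation p = 0.0962), and r was 0.85 without knockout 1 and wild type 3. It was -0.18 within knockout and 0.97 within wild type, so its sign differed between the genotypes. An array set or genotype of 4 arrays is too small for a tested correlation of its own.

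The beaded filament class, type VI collagen, links cells to the surrounding fibres. All 4 tested genes, of 5 with a probe set of their own, had a log2 fold change below 0, with a median of -0.32. Col6a3 read 706.4, 797.9, 815.9 and 805.5 on knockout arrays, against 890.1, 901.3, 1079.4 and 981.5 on wild-type arrays. The groups did not overlap, and the log2 fold change was -0.29 ± 0.13 with a limma adjusted p of 0.330. Col6a1 read 632.2, 457.5, 495.3 and 397.0 in knockout, against 605.5, 486.3, 805.4 and 661.9 in wild type. The groups overlapped, with a log2 fold change of -0.36 ± 0.19.

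Col6a2 read 1270.4, 1012.5, 1181.6 and 1053.3 in knockout, against 1361.4, 1346.6, 1412.5 and 1232.1 in wild type. Only knockout 1 lay above the lowest wild-type liver, and the log2 fold change was -0.25 ± 0.13. A second probe set of Col6a2 gave -0.48 without overlap. Col6a4 read 167.2, 135.8, 339.3 and 99.5 in knockout, against 268.8, 127.7, 388.8 and 235.3 in wild type, with wide overlap and a log2 fold change of -0.47 ± 0.39. Col6a1 and Col6a2 are neighbours on chromosome 10, with 85161 bases between their records, as are Col3a1 and Col5a2 on chromosome 1, with 24624 bases between them.

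The FACIT collagens sit on the surface of fibrils. Of 9 with a probe set of their own 4 were tested, with a median of -0.31. Col14a1, a chain that binds type I fibrils, read 1155.5, 1321.5, 1871.0 and 2280.8 in knockout, against 1632.4, 2205.0, 2870.5 and 2525.1 in wild type. Within each array set both knockout livers were below both wild-type livers, and the log2 fold change was -0.50 ± 0.24, with a limma adjusted p of 0.377. Col16a1 read 417.8, 400.7, 355.2 and 291.1 in knockout, against 496.8, 496.3, 487.7 and 415.8 in wild type. Only wild type 4 lay within the knockout range, and the log2 fold change was -0.37 ± 0.16 with a limma adjusted p of 0.316. Col12a1 and Col9a1 overlapped between groups, with log2 fold changes of -0.25 ± 0.19 and -0.26 ± 0.26.

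Outside these classes, Col18a1, whose end fragment is endostatin, read 11150.8, 10408.0, 10814.9 and 9768.5 in knockout, against 5858.3, 9787.7, 9864.6 and 11307.8 in wild type. Wild type 1 was far below the rest, the groups overlapped, and the log2 fold change was 0.23 ± 0.18. Per-array values of Col18a1 are given because of that array and were chosen after they were seen. Col25a1, a transmembrane collagen known from nervous tissue, read 84.7, 90.0, 200.3 and 175.3 in knockout, against 251.7, 209.9, 226.3 and 171.3 in wild type. Knockout 1 and knockout 2 were the lowest arrays, and the log2 fold change was -0.66 ± 0.31 with a limma adjusted p of 0.361. Col13a1, another transmembrane collagen, had a log2 fold change of 0.01 ± 0.21.

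The 20 genes that were not tested had signals of 1.5 to 355.8. Of these, 15 reached 200 on no array: Col11a2, Col24a1, Col4a4, Col6a5, Col8a1, Col8a2, Col10a1, Col9a2, Col9a3, Col19a1, Col20a1, Col15a1, Col17a1, Col23a1 and Col26a1. The other 5 reached it on 1 to 3 arrays: Col11a1, Col4a5, Col4a6, Col22a1 and Col7a1. Col6a6, Col21a1 and Col28a1 were not analysed here. Among the 22 tested genes, 17 reached 200 on all arrays.

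The comparison was repeated within each array set, which holds 2 livers per genotype. The sign was shared by both sets for 17 of the 22 genes, or 77.3%, against 58.3% of all probe sets tested. Col3a1 gave -1.05 in replicates 1 and 2 and -1.02 in replicates 3 and 4, Col27a1 gave -0.90 and -0.81, and Col1a1 gave -0.77 and -0.58. Col4a1 gave 0.37 in replicates 1 and 2 and 0.19 in replicates 3 and 4, and Col4a2 gave 0.52 and 0.10. The difference between the sets was tested as an interaction in limma: 2 genes had an unadjusted p under 0.05 (background 9.92%), and 0 passed after adjustment (background 0.00981%). These were Col1a2, with 0.02 in replicates 1 and 2 and -0.72 in replicates 3 and 4 (adjusted p 0.501), and Col25a1, with -1.25 and -0.07 (adjusted p 0.490). With the array set as a block, limma called 2 collagen genes lower, Col3a1 and Col27a1 (background 0.397%), and 0 higher (background 0.505%). At an unadjusted p under 0.05 that fit placed 7 lower (background 9.64%), which adds Col1a1, Col14a1, Col16a1, Col6a3 and Col25a1, and 1 higher, Col4a1 (background 8.7%).

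**Figure D3:**
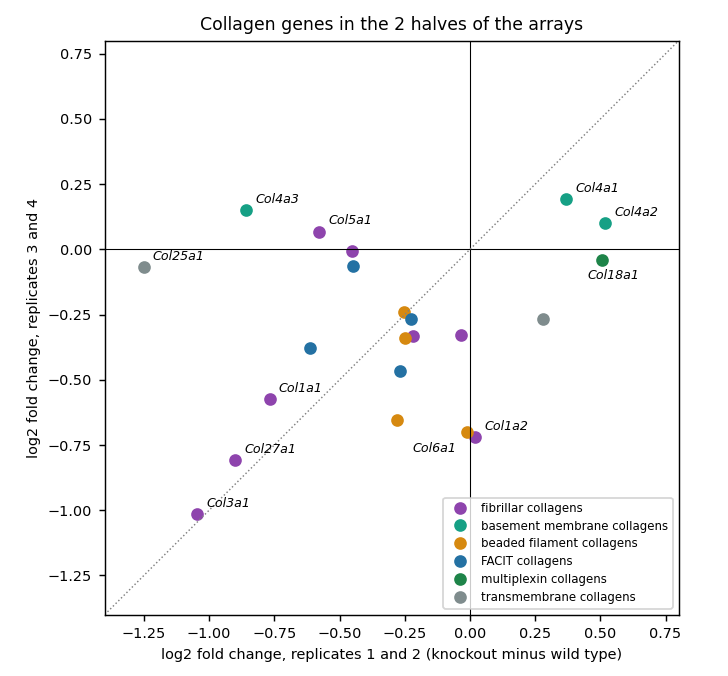
Log2 fold change, knockout minus wild type, of the 22 collagen genes in replicates 1 and 2 (horizontal axis) and in replicates 3 and 4 (vertical axis), 2 arrays per genotype in each, coloured by class, with a dotted line of equal values. Col3a1, Col27a1 and Col1a1 lie near the line on the negative side, and Col25a1 and Col1a2 lie away from it.

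No gene of the lists on how collagens are made, secreted, degraded or sensed passed the limma threshold. Of 14 tested folding and modification enzymes, 8 were above 0 and 6 below, with a median of 0.06. P4ha2, a subunit of prolyl hydroxylase, read 617.2, 411.2, 401.3 and 319.4 in knockout, against 252.0, 223.0, 240.3 and 214.6 in wild type. The groups did not overlap, with a log2 fold change of 0.83 ± 0.20 and a limma adjusted p of 0.107, or 0.0484 without knockout 4. Serpinh1, a chaperone dedicated to collagen, had a log2 fold change of -0.36 ± 0.17 with a limma adjusted p of 0.361.

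Among 14 tested genes of secretion, processing and cross-linking, 7 were above 0 and 7 below. Pcolce2, an enhancer of procollagen cleavage, read 220.0, 436.0, 297.1 and 413.8 in knockout, against 508.8, 871.4, 608.0 and 1118.5 in wild type. The groups did not overlap, with a log2 fold change of -1.13 ± 0.28 and a limma adjusted p of 0.107. Mia3, which loads procollagen for export, had a log2 fold change of 0.40 ± 0.17. Of 8 tested breakdown genes, 5 were above 0 and 3 below, and those with the smallest p were the gelatinase Mmp9 at -0.39 ± 0.17 and the neutrophil collagenase Mmp8 at 0.48 ± 0.25. Of 5 tested receptors, 3 were above 0 and 2 below, led by the integrin chain Itgb1 at 0.20 ± 0.11 and the mannose receptor Mrc1 at -0.19 ± 0.14.

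Of 16 tested genes of TGF-beta signalling, a main inducer of fibrillar collagen, 10 were above 0 and 6 below. Ccn2, a matricellular target of that pathway, read 534.1, 300.1, 591.5 and 479.8 in knockout, against 272.1, 107.7, 455.9 and 123.0 in wild type. Wild type 3 lay within the knockout range, and the log2 fold change was 1.12 ± 0.40 with a limma adjusted p of 0.239. The signal mediator Smad4 had a log2 fold change of 0.30 ± 0.16. Of 8 tested partners of type IV collagen in the basement membrane, 4 were above 0 and 4 below, led by the laminin chain Lamb1 at -0.38 ± 0.16 and the proteoglycan Agrn at 0.44 ± 0.25. Of 12 tested genes of the remaining interstitial matrix, 3 were above 0 and 9 below, led by periostin (Postn) at -0.41 ± 0.13 and fibulin (Fbln1) at -0.32 ± 0.15.

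Markers of the cells that make or surround collagen were read in the same fit. None was called in it, and with the array set as a block 1 was, the hepatocyte marker Tat. Of 13 stellate cell markers with a probe set of their own 11 were tested, with a median log2 fold change of -0.02. The signal summed over all 13 was 10662 to 14710 in knockout, against 11809 to 14503 in wild type. The defining markers Des and Cygb reached 200 on 3 and 2 arrays and were not tested. Of the 11 tested 5 were above 0 and 6 below. At an unadjusted limma p under 0.05 there were 2, Gfap and Angptl6, both below 0 (background 7.32%). Gfap, an intermediate filament of stellate cells, read 77.9, 146.7, 106.6 and 230.0 in knockout, against 417.6, 431.3, 415.3 and 227.8 in wild type. Of the knockout arrays only knockout 4 reached 200, and it lay above wild type 4, so the groups overlapped. The log2 fold change was -1.37 ± 0.32 with a limma adjusted p of 0.0995. Across the other settings that adjusted p ran from 0.0369, without knockout 4, to 0.381. Of 12 portal fibroblast and smooth muscle markers 7 were tested, with a median of 0.00, and 4 of the 7 were above 0. Sums over all 12 were 4523 to 5655 in knockout, against 3522 to 6246 in wild type. Thy1 and Mgp reached 200 on 2 arrays, Dpt on 1 and Myh11 and Cnn1 on 0, so these were not tested, and Gas6 had a log2 fold change of -0.40 ± 0.14 with a limma adjusted p of 0.228. All 16 endothelial markers were tested, with a median of 0.00 and sums of 15257 to 22752 in knockout, against 14232 to 20238 in wild type. Of these 8 were above 0 and 8 below, and the median was 0.21 in replicates 1 and 2 and -0.24 in replicates 3 and 4. At an unadjusted limma p under 0.05, Kdr was lower at -0.50 ± 0.17 (background 7.32%) and Emcn higher at 0.40 ± 0.16 (background 7.12%).

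Of 11 hepatocyte markers listed, 9 had a probe set of their own and all 9 were tested, while Serpina1a and Tf were not analysed. The 9 had a median of 0.11 and sums of 172043 to 249651 in knockout, against 154302 to 195546 in wild type. All 9 were above 0 over all arrays, and 3 had an unadjusted limma p under 0.05 (background 7.12%), Tat, Hnf4a and Cps1. The median of this list was 0.37 in replicates 1 and 2 and -0.15 in replicates 3 and 4, so its sign differed between the array sets. Tat, an enzyme of tyrosine breakdown, read 24303.6, 15254.9, 15544.7 and 8501.2 in knockout, against 4877.8, 6387.3, 5868.1 and 6672.6 in wild type. The groups did not overlap, with a log2 fold change of 1.33 ± 0.26 and a limma adjusted p of 0.0674, or 0.0468 with the array set as a block. Across the other settings the limma adjusted p of Tat ran from 0.0124, without knockout 4, to 0.242. Hnf4a, a hepatocyte transcription factor, had a log2 fold change of 0.73 ± 0.27 with a limma adjusted p of 0.251. The sums over 10 macrophage markers, 9 of them tested, were 22210 to 38922 in knockout, against 21107 to 31734 in wild type. Of the 9 tested, 5 were above 0 and 4 below. Their median was 0.39 in replicates 1 and 2 and -0.17 in replicates 3 and 4. Only Vsig4 had an unadjusted limma p under 0.05, at 0.54 ± 0.22 without overlap (background 7.12%). The sums over 8 erythroid markers, all tested, were 47311 to 72493 in knockout, against 54969 to 67980 in wild type. Of these 8, 1 was above 0 and 7 below. The erythroid median was -0.48 in replicates 1 and 2 and 0.17 in replicates 3 and 4. Of 5 cholangiocyte markers with a probe set of their own 2 were tested. Sums over all 5 were 559 to 1349 in knockout, against 456 to 1763 in wild type. All 14 tested cell division genes were below 0, and 6 had an unadjusted limma p under 0.05 (background 7.32%). Their median was -0.49 over all arrays, -0.87 in replicates 1 and 2 and -0.03 in replicates 3 and 4, whereas the fibrillar collagens gave -0.51 and -0.45. Rrm2 and Cdk1, which serve DNA synthesis and entry into mitosis, had log2 fold changes of -0.78 ± 0.29 and -0.60 ± 0.23 over all arrays. The part of these cell types and of cell division in the collagen values was not tested.

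**Figure D4:**
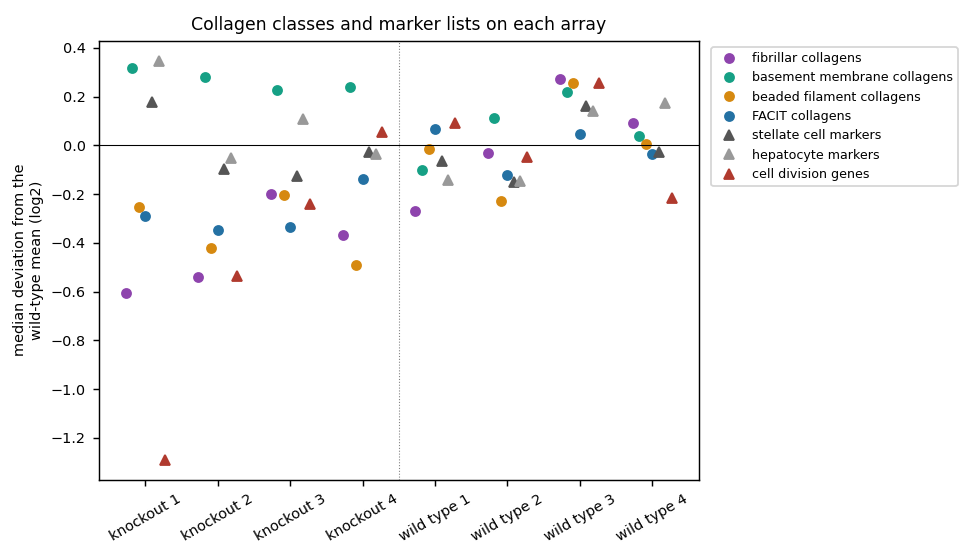
Median deviation from the wild-type mean, in log2 units of signal + 16, of the tested genes of 4 collagen classes (circles) and 3 other lists (triangles) on each array, knockout arrays left and wild-type arrays right. Fibrillar collagens lie at -0.61, -0.54, -0.20 and -0.37 on the knockout arrays and basement membrane collagens at 0.32, 0.28, 0.23 and 0.24, while cell division genes range from -1.29 to 0.06 there. On the wild-type arrays fibrillar collagens lie at -0.27, -0.03, 0.27 and 0.09, with wild type 1 below knockout 3. Basement membrane collagens lie at -0.10, 0.11, 0.22 and 0.04 on the wild-type arrays, with wild type 3 close to knockout 3.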

How the data were processed

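RNA of 4 knockout and 4 wild-type livers was measured on 1 array each. Per the labels, the authors made the deposited signal intensities with GCOS 1.2 at default settings, scaled on each array to a target signal of 500, and that linear scale was kept. Precision is set by the 4 arrays per group, with a median standard error of 0.19 on the log2 scale.

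Of 45101 deposited probe sets, 64 controls were left out, and genes were named from the platform annotation. A probe set was tested where 4 or more arrays read 200 or higher, which kept 20395. Log2(signal + 16) was compared between genotypes by limma 3.58.1 (R 4.3.3) in a two-sided moderated test with an intensity trend, and p-values were adjusted by Benjamini-Hochberg over all of them. The fit was tested on simulated data. Fold changes understate the change of dim genes. The table holds no detection calls. Arrays were grouped by their titles, no 2 were duplicates, and same-numbered arrays were not treated as pairs. The array set, read from control probe sets, was used as a block and by part.

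The collagen members and all lists were chosen with earlier results of these data known. Per-array values are given for tested chains of types I, III, IV, V and VI and for the 8 smallest p, and each pathway list names its 2 members of smallest p. Marker lists are given by counts and sums, with members named after their values were seen. Sums are over all genes of a list with a probe set of their own, tested or not. Promoter windows are from RefSeq (GRCm38.p6), matched by the gene identifier that the annotation gives for each symbol. Other signal minimums, pseudocounts, scalings, probe set choices, blocks and left-out arrays were tried. Figures were drawn with matplotlib 3.10.9 in Python 3.11.15.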

Additional observations from a re-analysis of the deposited data

Results flagged for a closer look

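In 5 of 44 groups of 4 arrays, 1 array lay far from the other 3, where 1 in 20 groups, or 2.2, would do so by chance. Col5a3 was 365.1 on knockout 2 against 476.8 to 480.6 on the other knockout arrays. Col6a3 was 706.4 on knockout 1 against 797.9 to 815.9. Col4a1 was 3233.6 on wild type 1 against 3512.3 to 3562.5 on the other wild-type arrays. Col9a1 was 607.9 on wild type 1 against 292.0 to 317.5. Col16a1 was 415.8 on wild type 4 against 487.7 to 496.8.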

How the results depend on the processing

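Across 24 other settings the median of the tested collagen genes stayed between -0.35 and -0.24, and 0 collagen genes were called higher in each. Col27a1 had limma adjusted p-values of 0.0295 to 0.212 and Col3a1 of 0.0235 to 0.348. Collagen genes called lower numbered 1, Col27a1, at a minimum signal of 500, 1 at an adjusted p under 0.1, and 2 with the array set as a block, with or without wild type 4. Leaving out 1 array gave 0 to 1, the call being Col27a1 without knockout 4 or without wild type 1. The replicate number as a block called 1 collagen gene lower, Col3a1, and 1 pathway gene lower, Pcolce2. It called 26 probe sets higher and 30 lower in all. Same-numbered arrays had residual correlations of 0.22, 0.40, 0.34 and 0.05, not all above 0.1, and not every array correlated best with its own number. P4ha2 was called without knockout 4, so pathway genes called higher numbered 0 to 1. The fibrillar median was -0.51 both at a minimum of 500 and in replicates 1 and 2 alone. The basement membrane median was 0.20 with no minimum, 0.37 in replicates 1 and 2 alone, 0.15 in replicates 3 and 4 alone, and 0.15 to 0.30 with 1 array left out, lowest without wild type 1. Over all probe sets, higher and lower calls, 30 and 31 as reported, were 8 and 14 at a minimum of 100, 61 higher at 500, 8 and 13 with none, 4 and 14 without the intensity trend, and 166 and 138 at an adjusted p under 0.1. They were 103 and 81 with the array set as a block, 103 and 51 with that block and no wild type 4, 6 lower in replicates 1 and 2 alone, 0 and 2 in replicates 3 and 4 alone, and 0 to 211 and 2 to 123 with 1 array left out. Signs turned for Col5a1 as the mean of its probe sets (0.0067), for Col1a2 in replicates 1 and 2 alone (0.021), and in replicates 3 and 4 alone for Col4a3 (0.15), Col5a1 (0.068), Col18a1 (-0.039), Agrn (-0.040) and Col13a1 (-0.27). Col13a1, near 0, ranged from -0.18 to 0.13 with 1 array left out. Col4a3 ranged from -0.61 to 0.024 with 1 array left out, and was above 0 only without knockout 1. Pearson's r of Col6a1 with Col6a2 was 0.75 at a pseudocount of 64 (adjusted exact permutation p = 0.0502), and that of Col1a1 with Col1a2 was 0.73 after quantile normalization (adjusted exact permutation p = 0.0371). Where fewer arrays or fewer probe sets enter, the count changes with them, and the cause of the other changes was not tested. Without detection calls, genes near the minimum signal cannot be placed above or below background.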
